A study of Mus musculus with 6 samples.

Results

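The genes described are Trp53, which encodes the transcription factor p53, and 9 well known targets of p53: Mdm2, Ccng1, Cdkn1a, Fas, Perp, Bax, Bbc3, Trp53inp1 and Sesn2. They were taken by name from the annotation of the array. Of these 10 genes, 8 had a probe set named for them alone, 15 probe sets in all out of 45101, and all 15 passed the filter on low signal. Trp53 and Bax are not analysed here. The values therefore concern the targets and not the transcript of p53 itself.

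The samples were embryoid bodies, free-floating clusters of embryonic stem cells that differentiate as they grow. Cells of the mouse embryonic stem cell line D3 were aggregated without LIF in rotary culture around gelatin-coated microspheres and sampled at 10 days. In 3 samples the microspheres were loaded with retinoic acid (RA), the form of vitamin A that nuclear receptors bind, and in 3 control samples they carried CellTracker Red, a fluorescent dye. All 6 samples came from the same line and held microspheres, so neither bodies without microspheres nor RA added to the medium form part of the comparison. The labels give no dose of RA, no microsphere to cell ratio and no rotary speed for the arrayed samples, and they call the samples triplicates without saying that they were separate cultures. Each p-value is thus set against a spread that may be technical.

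p53 is held low in unstressed cells by Mdm2, a ubiquitin ligase that marks it for destruction and that p53 itself induces, so that the pair form a feedback loop. When p53 accumulates, it binds paired half-sites in the DNA of its targets and raises genes that halt the cell cycle, promote death or adapt metabolism. Embryonic stem cells hold much p53 protein, and p53 is known in them for limiting self-renewal and favouring differentiation. Many of its targets are also switched on by other factors during differentiation, so their transcripts are not a measure of p53 activity alone.

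The promoter windows below are shown because the p53 half-site consensus, a motif of 10 letters, occurs in them. RefSeq windows of GRCm38.p6, from 250 bases before to 50 bases after a transcript start, were found for 6 of the 8 measured genes (9 windows). Perp and Trp53inp1 were not among them. The half-site reads the same on both strands, and it was found in 3 of the 9 windows, against 8.36% of all 32851 windows. Capitals mark half-sites and, for Ccng1 and Cdkn1a, pairs of half-sites with a spacer of at most 13 bases and at most 1 letter off the consensus. Such a pair was found in 0.627% of all windows.
Cdkn1a upstream start, chr17:29090729-29091028, plus strand: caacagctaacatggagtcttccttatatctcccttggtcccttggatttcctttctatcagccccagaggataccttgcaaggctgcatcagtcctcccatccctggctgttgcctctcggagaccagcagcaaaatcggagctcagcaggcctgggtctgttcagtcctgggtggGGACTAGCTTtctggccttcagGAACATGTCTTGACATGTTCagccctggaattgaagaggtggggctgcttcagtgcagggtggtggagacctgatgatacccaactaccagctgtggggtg
Ccng1, chr11:40755237-40755536, minus strand: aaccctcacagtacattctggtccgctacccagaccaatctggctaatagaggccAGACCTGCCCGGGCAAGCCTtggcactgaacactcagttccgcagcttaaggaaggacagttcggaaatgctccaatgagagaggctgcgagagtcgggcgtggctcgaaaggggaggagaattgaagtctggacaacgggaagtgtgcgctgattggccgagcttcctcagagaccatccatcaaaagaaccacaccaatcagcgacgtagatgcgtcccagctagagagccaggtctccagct
Mdm2, chr10:117710709-117711008, minus strand: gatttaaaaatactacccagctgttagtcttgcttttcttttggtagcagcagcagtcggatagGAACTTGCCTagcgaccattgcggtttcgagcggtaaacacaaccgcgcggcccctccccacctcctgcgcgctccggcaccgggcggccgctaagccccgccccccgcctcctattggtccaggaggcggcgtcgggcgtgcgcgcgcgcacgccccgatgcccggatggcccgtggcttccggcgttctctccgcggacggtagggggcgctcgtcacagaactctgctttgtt

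In the Cdkn1a window the pair without a spacer is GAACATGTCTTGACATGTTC, and its first base lies 51 bases before the transcript start. It overlaps a second match, in which its left half-site pairs with GGACTAGCTT across a spacer of 12 bases. The Ccng1 pair, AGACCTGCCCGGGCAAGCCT, also has no spacer and begins 195 bases before the start. Mdm2 held the single half-site GAACTTGCCT, beginning 186 bases before the start. The other Cdkn1a window, the 3 Bbc3 windows and those of Fas and Sesn2 held no half-site, which says only that these letters are not in these windows of 300 bases. The best known p53 sites of Mdm2 and Fas lie inside the genes, downstream of the windows. A match is a description of the sequence, and p53 binding was not measured.

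Most of the 8 measured p53 target genes were called lower in bodies with RA microspheres, 3 of them also without scaling between arrays. Of the 8 measured genes, 6 fell with RA and 0 rose (limma, Benjamini-Hochberg adjustment over all genes), where 15.6% of all 13608 genes tested were called lower and 14.3% higher. Fas, a death receptor, fell most, and Cdkn1a, the p21 inhibitor of cyclin-dependent kinases, was 3.13 times lower with RA. Perp, a membrane protein of cell death and cell adhesion, was 2.79 times lower, and Ccng1 (cyclin G1) 1.88 times. Trp53inp1 and Mdm2 fell by less, 1.45 and 1.38 times, and the calls of these and of Ccng1 rest on the scaling of the arrays or on the probe set read. Bbc3 and Sesn2 did not pass. The median log2 fold change of the 8 genes was -0.72, beside 0.012 for all genes. Without scaling between arrays 3 genes were called lower (Fas, Cdkn1a and Perp), where 4.8% of all genes were lower and 12.8% higher. With the mean of a gene's kept probe sets 4 were called lower (these and Ccng1). At that setting 1861 of all 13608 genes were lower and 1754 higher.

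**Figure D1:**
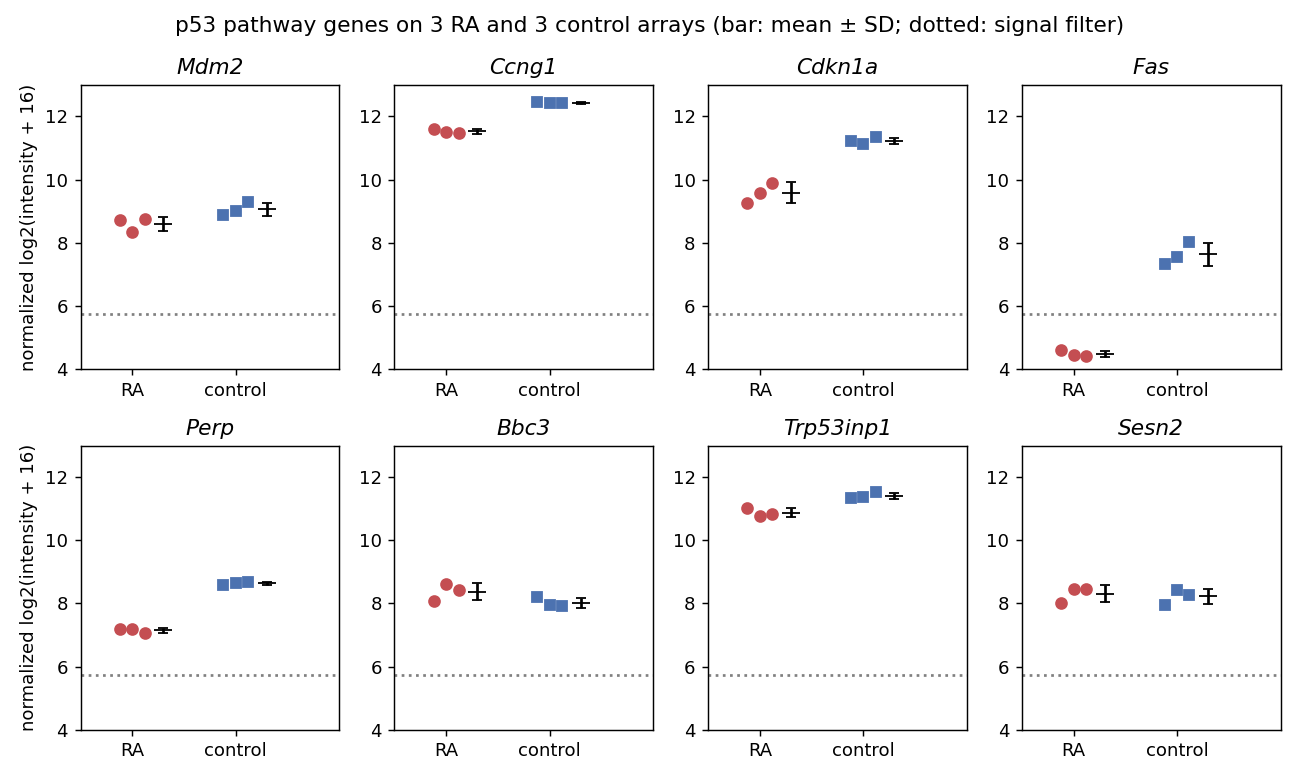
Normalized log2(intensity + 16) of the 8 measured p53 target genes on each array, with RA arrays (red circles) left of control arrays (blue squares); bars are the mean ± SD of 3 arrays and the dotted line is the filter level of 5.74. The RA arrays lie below the control arrays for Mdm2, Ccng1, Cdkn1a, Fas, Perp and Trp53inp1, and the groups overlap for Bbc3 and Sesn2.

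Array quality touches these values. The Gapdh 3-prime to 5-prime ratio, which rises when RNA is degraded, was 34.0 on RA array 1 and 3.06 to 4.74 on the other arrays, and control array 3 had the lowest median signal (41.4, against 54.7 to 65.5 on the others). The same ratio for actin was 7.42, 4.35 and 4.90 on RA arrays 1, 2 and 3, against 3.46, 3.35 and 4.24 on control arrays 1, 2 and 3, so that every RA array lay above every control array. The part of RNA quality in the values of the p53 target genes was not tested. Leaving out RA array 1 gave 6 target genes lower and 1 higher, Bbc3, which was not called with all arrays. Of all 13608 genes, 1928 were then lower and 1621 higher. With RA array 1 and control array 3 both left out 5 target genes were lower and 0 higher, beside 1822 and 1658 of all genes. Across genes, normalized values of arrays of 1 group correlated at 0.959 to 0.971, and those of arrays of different groups at 0.879 to 0.901.

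Mdm2, the feedback inhibitor, had log2 levels of 8.71, 8.32 and 8.74 on RA arrays 1, 2 and 3, against 8.88, 9.02 and 9.28 on control arrays 1, 2 and 3. The groups did not overlap, as for 22.2% of all genes in the same direction, but the gap between RA array 3 and control array 1 was small. The log2 fold change was -0.47 ± 0.14 (SE; limma adjusted p = 0.0294). This call was lost without scaling between arrays (-0.19, limma adjusted p = 0.697). It was also lost without RA array 2 (-0.33), without control array 2 (-0.49) or 3 (-0.37), and without RA array 1 and control array 3 (-0.43). Mdm2 was not called in the fit without a trend either (limma adjusted p = 0.0888). Its other probe sets, 1427718_a_at and 1457929_at, had log2 fold changes of -0.15 ± 0.18 and 0.13 ± 0.26 and did not pass, and the mean of the 3 probe sets gave -0.16. Mdm2 was thus called lower on 1 of its 3 probe sets.

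Ccng1 encodes cyclin G1, which recruits a phosphatase to Mdm2 and is one of the most strongly p53-dependent transcripts known in mouse tissues. Its brightest probe set (1420827_a_at) stood at 11.61, 11.49 and 11.47 on the RA arrays and at 12.47, 12.42 and 12.43 on the control arrays. The groups lay far apart compared with their spread, and the log2 fold change was -0.91 ± 0.07 (SE; limma adjusted p = 1.97e-06). Probe set 1450017_at also fell (-0.70 ± 0.10), with 9.81, 9.58 and 9.48 on the RA arrays and 10.27, 10.39 and 10.29 on the control arrays.

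The third Ccng1 probe set, 1450016_at, did not follow. It stood at 10.13, 10.18 and 10.13 on the RA arrays and at 9.96, 10.04 and 10.09 on the control arrays. All RA arrays thus lay slightly above the controls, and the log2 fold change of this probe set, 0.12 ± 0.08, did not pass. The difference between 1420827_a_at and 1450016_at was 1.37 on average with RA and 2.41 in controls. This unequal change of -1.04 had an exact two-sided permutation p of 0.1, the smallest that 3 against 3 arrays allow. The sequences that the probe sets read were not used here, so which part of the transcript differs was not tested. Ccng1 lies on chromosome 11, where 28.7% of 1116 tested genes were called lower and 6.45% higher (median log2 fold change -0.20). On the chromosomes of the other measured members (4, 7, 10, 17 and 19) between 12.6% and 14.3% were lower. The part of this shift in the Ccng1 value was not tested. Trp53, which is not analysed here, also lies on chromosome 11. Without scaling the Ccng1 call was lost (-0.49, limma adjusted p = 0.175).

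Cdkn1a binds and inhibits the cyclin-dependent kinases that drive entry into S phase. Its brightest probe set (1424638_at) stood at 9.25, 9.58 and 9.91 on the RA arrays, against 11.21, 11.14 and 11.33 on the control arrays. The RA arrays spread more widely (SD 0.33, against 0.10 in controls), with RA array 1 lowest, and all of them lay more than 1 log2 unit below every control array. The log2 fold change was -1.65 ± 0.14 (SE; limma adjusted p = 5.64e-06). Without RA array 1 it was -1.47, and over all alternatives it ran from -1.80 to -1.27 and stayed called. The dimmer probe set, 1421679_a_at, had 4.83, 6.36 and 5.44 on the RA arrays and 7.72, 6.85 and 7.54 on the control arrays. Its log2 fold change of -1.83 ± 0.38 passed as well (limma adjusted p = 0.00558), although its RA mean lay below the filter level.

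The genes whose profile over the 6 arrays was nearest to that of Cdkn1a, by root mean square difference of centred log2 levels, were Serpina1c (0.049), Rnasek (0.082) and Prrx1 (0.11). Their log2 fold changes were -1.61 ± 0.24, -1.55 ± 0.21 and -1.54 ± 0.17, and those of Rnasek and Prrx1 were -0.69 and -0.64 with the mean of their probe sets. Serpina1c encodes a serum protease inhibitor, and Prrx1 a homeobox factor of mesenchyme. The RA mean of Serpina1c (5.65) lay below the filter level, and its probe set may also read close relatives.

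Among genes of cell death, Fas, the receptor that starts the extrinsic pathway when bound by Fas ligand, had log2 levels of 4.58, 4.46 and 4.40 on the RA arrays, against 7.33, 7.55 and 8.03 on the control arrays. In deposited intensity these were 8.91, 6.53 and 5.93 with RA and 150, 186 and 167 in controls. Every RA array lay below the filter level of 5.74 and every control array above it, so Fas passed the filter through the control arrays. The log2 fold change was -3.16 ± 0.29 (SE; limma adjusted p = 1.03e-05), an 8.91-fold lower level with RA. Measured against the filter level in place of the RA mean, the control level was 3.73 times higher. The size moved with the pseudocount, from -4.67 at a pseudocount of 1 to -1.82 at 64, and the call stayed in all 15 alternatives.

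Perp encodes a membrane protein that p53 induces in dying cells and that p63, a relative of p53, induces in epithelia, where it belongs to desmosomes. It stood at 7.20, 7.20 and 7.06 on the RA arrays, against 8.58, 8.66 and 8.66 on the control arrays. Both groups were tight and well separated, with a log2 fold change of -1.48 ± 0.13 (SE; limma adjusted p = 8.78e-06), and the call held in all 15 alternatives. Epithelial and desmosome markers moved in both directions: 4 of 10 rose (40%, against 14.3% of all genes) and 2 fell (20%, against 15.6%). The share that fell is thus near that of all genes. E-cadherin (Cdh1) and Epcam were 2.96 and 2.79 times higher with RA. The 2 that fell, named after their values were seen, were Krt19, a keratin, at 2.14 times lower, and the desmosome gene Dsp, at 1.59 times lower, whose call was lost without scaling. The desmosome genes Jup (-0.22 ± 0.10) and Dsg2 (-0.081 ± 0.13) did not pass, and Pkp2 was 1.27 times higher, a call lost without scaling, without a trend, or with RA array 1 and control array 3 both left out. These 3 were also named afterwards. The probe sets of Dsp, Jup and Pkp2 may also read other transcripts. The summed normalized intensity of all 10 markers was 15876 to 16418 on the RA arrays and 12158 to 13016 on the control arrays. This sum is weighted to bright genes such as Cdh1, whose mean log2 level was 12.3 with RA and 10.7 in controls. The RA level of Trp63, named after its values were seen, varied between 5.10 and 6.93, against 6.47 to 6.74 in controls, and did not pass (-0.26 ± 0.43, and 0.35 without RA array 2).

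Bbc3 encodes PUMA, a BH3-only protein that triggers the mitochondrial pathway of apoptosis. It stood at 8.08, 8.61 and 8.44 on the RA arrays and at 8.21, 7.95 and 7.91 on the control arrays, so RA array 1 lay inside the range of the controls. The log2 fold change was 0.35 ± 0.16 (SE, unadjusted 95% interval 0.0033 to 0.70; limma adjusted p = 0.123). Without RA array 1, the array with the high Gapdh ratio, it was 0.49 and passed (limma adjusted p = 0.0327). Of the other 14 alternatives none gave a call.

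Trp53inp1 encodes a stress-induced protein that promotes p53 phosphorylation and takes part in autophagy. Its brightest probe set (1416926_at) had 11.03, 10.77 and 10.84 on the RA arrays, against 11.33, 11.39 and 11.52 on the control arrays. The groups did not overlap, and the log2 fold change was -0.53 ± 0.09 (SE; limma adjusted p = 0.000768). The dimmer probe set, 1416927_at, ran the other way, with 7.26, 6.95 and 7.07 on the RA arrays and 6.25, 6.55 and 7.05 on the control arrays. Its log2 fold change of 0.48 ± 0.24 did not pass. The difference between these probe sets was 3.79 on average with RA and 4.80 in controls, an unequal change of -1.01 (exact permutation p = 0.1, the smallest possible). The mean of both gave -0.029, and without scaling the value was -0.13 (limma adjusted p = 0.784).

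Sesn2 encodes a sestrin, which restrains the growth kinase mTORC1 when leucine is short and which the stress factor ATF4 induces as well as p53. It stood at 8.01, 8.45 and 8.47 on the RA arrays and at 7.96, 8.44 and 8.27 on the control arrays, and the groups overlapped throughout. The log2 fold change was 0.089 ± 0.17 (SE; limma adjusted p = 0.740), with a 95% interval from -0.28 to 0.46. The second probe set gave 0.036 ± 0.24.

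**Figure D2:**
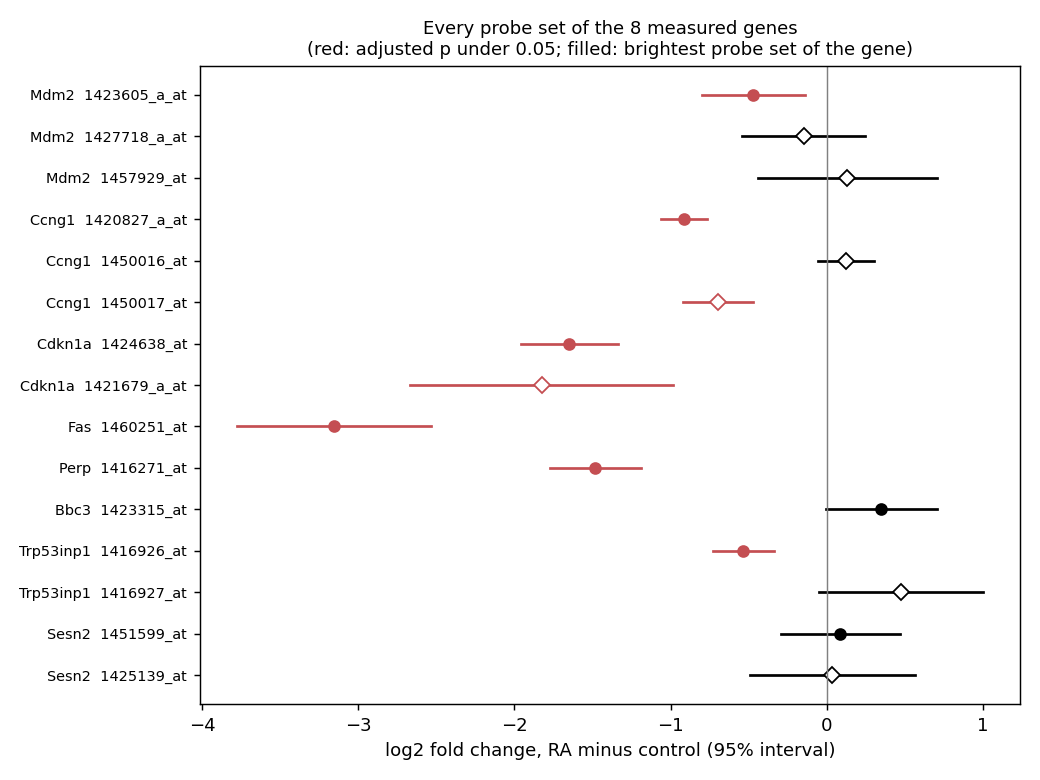
Log2 fold change, RA minus control, of all 15 probe sets of the 8 genes, from the fit over all kept probe sets; lines are 95% intervals, filled symbols the brightest probe set of a gene, and red marks an adjusted p under 0.05. Both Cdkn1a probe sets and 2 of 3 for Ccng1 are lower, while the dimmer probe sets of Mdm2 and Trp53inp1 and the Ccng1 probe set 1450016_at are not called.

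In the fit with every probe set as a feature, 8 of the 15 member probe sets were lower and 0 higher, against 11.1% and 11.3% of all 27022 probe sets. Without scaling 4 were lower, at a setting where 4.8% of all genes were called lower. The share of all probe sets at that setting was not computed.

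A wider list of 38 p53 targets was examined, of which 32 were tested. With RA 12 fell (37.5%, against 15.6% of all genes) and 2 rose (6.25%, against 14.3%), and the median log2 fold change was -0.32. Ak1 (adenylate kinase) and Rprm (Reprimo, linked to arrest in G2) were 2.02 and 2.21 times lower, and the kinase gene Plk2 was 1.98 times lower. Dram1, a lysosomal protein that p53 uses to promote autophagy, went the other way: it stood at 8.15, 7.84 and 8.16 on the RA arrays and at 7.01, 6.63 and 6.58 on the control arrays, 2.48 times higher with RA (limma adjusted p = 0.000248). The other riser was Aen, a nuclease of apoptosis, named because only 2 rose (0.38 ± 0.11). Its call was lost in 5 of 15 alternatives: without scaling, without a trend, and without RA array 2 or 3 or control array 2 (limma adjusted p up to 0.101). None of the 3 named falls had a limma adjusted p above 0.000307. Without scaling 3 fell and 1 rose, beside 4.8% and 12.8% of all genes, and the calls of Ak1 and Plk2 were lost as well.

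Among 23 tested genes of the p53 family and its regulators, out of 24 listed, 9 rose (39.1%) and 3 fell, with a median of 0.29. Of all genes 14.3% rose and 15.6% fell, so the 3 of 23 that fell are near the share of all genes. Hipk2, a kinase that phosphorylates p53 for apoptosis, was 2.06 times lower with RA, and Ppp1r13b, whose protein ASPP1 directs p53 to death genes, was 3.25 times lower. Usp7, which removes ubiquitin from Mdm2 and p53, and Kmt5a, a methyltransferase that acts on p53 and on histone H4, were 1.59 and 1.53 times higher. All 4 had a limma adjusted p of 0.00126 or less. Mdm4, the partner of Mdm2, was named after its values were seen: it fell by 0.57 log2 units with an SE of 0.15 (limma adjusted p = 0.0139). The call was lost without scaling, without control array 1 or 2 and with the mean of its probe sets. Cdkn2a, whose Arf product blocks Mdm2, was also named afterwards, lay near the filter level in both groups (5.83 with RA and 5.91 in controls) and did not pass. Without scaling 5 of the list rose and 1 fell, and Hipk2 did not pass. With the mean of its probe sets Hipk2 had -0.42.

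Of 20 other genes of apoptosis tested, out of 25 listed, 2 rose (10%) and 3 fell (15%), with a median of 0.072. These shares are near or below those of all genes (14.3% and 15.6%), so those named are single genes and no result about the list. Bcl2, the survival factor that BH3-only proteins bind, was 3.09 times lower with RA (limma adjusted p = 0.00093), with an RA mean of 5.53, below the filter level, and -1.01 at a pseudocount of 64. Fadd and Cflar, which act directly downstream of Fas as adaptor and as inhibitor of caspase-8, were 1.84 and 1.56 times lower, and Diablo, a mitochondrial protein that frees caspases, was 1.33 times higher. In limma these 3 had adjusted p values between 0.0162 and 0.0218. Cflar lost its call without any single array except RA array 3 and control array 2 (-0.60 to -0.56) and had 0.085 with the mean of its probe sets. Fadd lost it without RA array 3 or control array 2, and without RA array 1 and control array 3 at once, and Diablo without RA array 3. Without scaling only Bcl2 was lower, and 0 were higher.

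Around the step that p21 controls, 17 tested CDK inhibitors, cyclins and partners of G1 included 7 that fell (41.2%, against 15.6% of all genes) and 1 that rose (5.88%, against 14.3%). The cyclin genes Ccnd3 and Ccnd2 were 2.28 and 1.51 times lower with RA, Cdkn1c (p57, a relative of p21) was 1.55 times lower, and Ccne1 was 1.46 times higher. All 4 had a limma adjusted p of 0.00246 or less, and the median of the list was -0.19. Inhibitors and cyclins D thus both hold members that fell. Without scaling Ccnd3 alone was lower and Ccne1 alone higher.

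When p21 is high it keeps the DREAM repressor on genes of replication and mitosis. Of 19 tested genes of this kind, out of 20 listed, 10 rose with RA (52.6%, against 14.3% of all genes) and 0 fell, and the median was 0.34. Ccna2 (cyclin A2) was 1.70 times higher, the replication helicase genes Mcm5 and Mcm3 were 1.46 and 1.50 times higher, and the mitotic kinase gene Aurka was 1.60 times higher (limma adjusted p at most 0.000835). The 9 genes not called included Birc5 (-0.18 ± 0.08) and Mybl2 (-0.30 ± 0.15), lower on every RA array than on every control array. The same held for 22.2% of all genes. Cdk1 (0.14 ± 0.07), also not called, was higher on every RA array. These were named after their values were seen. Without scaling 9 of the 19 genes were higher. The part of the lower Cdkn1a level, or of the makeup of the bodies described below, in these values was not tested. The probe sets of Mcm5, Mcm3, Ccne1, Usp7, Ppp1r13b and Mdm4 are of types that may also read other transcripts.

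**Figure D3:**
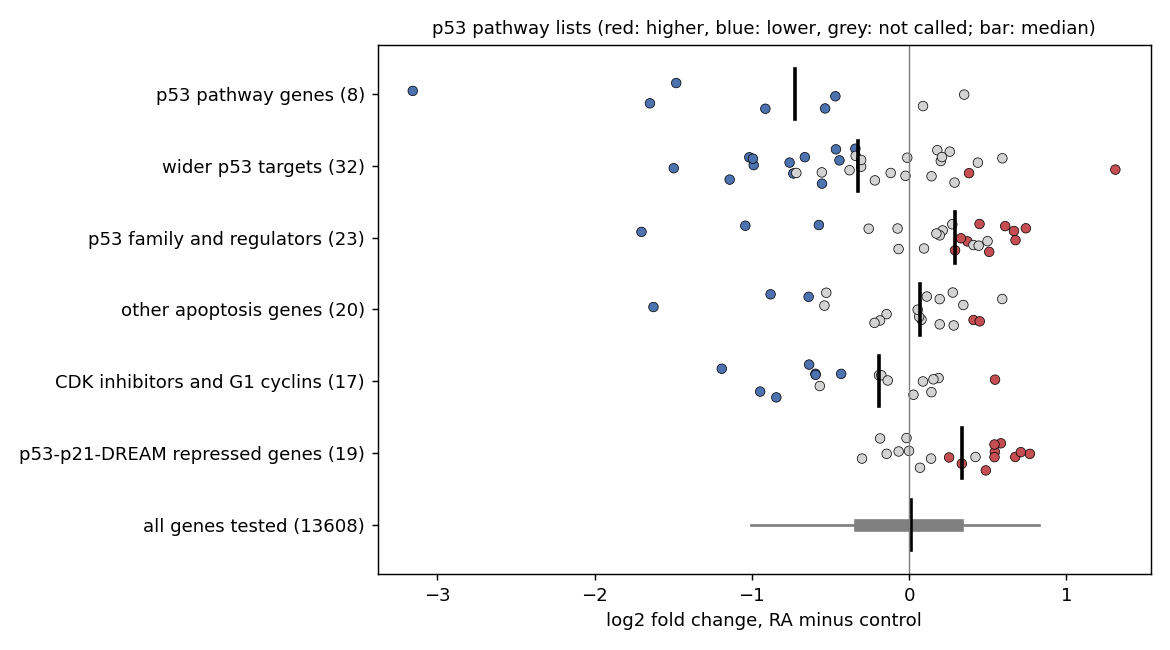
Log2 fold change, RA minus control, of every tested gene in the p53 pathway and in 5 related lists, with the number tested in brackets; red genes were called higher, blue lower and grey not called, and black bars are medians. The bottom row gives all genes, with a thick line from the 25th to the 75th percentile (-0.31 to 0.30) and a thin line from the 5th to the 95th percentile (-1.01 to 0.83); the medians are -0.72 for the p53 pathway genes, -0.32 for the wider targets and 0.34 for the p53-p21-DREAM genes.

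The makeup of the bodies differed between the groups. All 8 epiblast markers rose with RA (100%, against 14.3% of all genes), led by Dnmt3b and Fgf5 (14.8 and 14.1 times). The control means of Zic2 (5.57) and Foxd3 (5.03), named after their values were seen, lay below the filter level. These 2 passed it through the RA arrays. The summed normalized intensity of all 8 was 12251 to 12783 on the RA arrays and 1434 to 1790 on the control arrays. All 8 mesenchyme markers fell (100%, against 15.6% of all genes), with Postn 15.0 and Col3a1 5.22 times lower. The sums of all 8 were 3436 to 3816 with RA and 20671 to 24270 in controls. Heart muscle markers fell for 8 of 10 (80%), with Myh6 48.2 and Myl7 33.2 times lower. The sums of all 10 were 680 to 766 with RA and 12889 to 19420 in controls.

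Markers of primitive red cells fell for 4 of 6 (66.7%, against 15.6% of all genes), with Hbb-y 88.9 and Hbb-bh1 20.2 times lower. The sums of all 6 were 451 to 489 with RA and 15303 to 17413 in controls. Endothelial markers fell for 5 of 6 (83.3%), with Cldn5 10.2 and Kdr 3.43 times lower. The sums of all 6 were 318 to 519 with RA and 1068 to 1224 in controls. The endothelial marker that did not fall, Flt1, was named after its values were seen. It was 1.78 times higher with RA, with every RA array above every control array, and did not pass (limma adjusted p = 0.0569). Macrophage markers fell for 4 of 6 (66.7%), with C1qb 5.45 and Cd68 2.98 times lower. The other 2, named after their values were seen, were Adgre1 (-0.29 ± 0.22) and Csf1r (0.21 ± 0.22). Both overlapped between the groups and did not pass. The sums of all 6 were 557 to 657 with RA and 770 to 1175 in controls. Of 9 visceral endoderm markers 3 rose (33.3%, against 14.3% of all genes) and 6 fell (66.7%), with Rbp4 10.5 and Fgb 34.9 times lower. The sums of all 9 were 8474 to 9876 with RA and 30253 to 31560 in controls. The 3 that rose, named after their values were seen, were Cubn and Amn, partners in a receptor for protein uptake, at 9.29 and 7.65 times higher with RA, and Apob at 2.14 times higher. The control mean of Amn (5.64) lay below the filter level. The RA means of Myh6, Cldn5, C1qb, Cd68 and Fgb lay below the filter level, so their folds depend on the pseudocount. Counting unnamed markers too, RA means below it numbered 4 for heart muscle, 1 for primitive red cells and 1 for visceral endoderm. There were 2 for endothelium and 3 for macrophages. All these markers passed the filter through the control arrays. The probe sets of Hbb-y, Hbb-bh1, C1qb and Cubn may also read other transcripts. No tested marker was at 0 on all arrays. The part of these shifts in the values of the p53 target genes was not tested, and fewer cells of a type and less RNA per cell cannot be told apart in whole bodies.

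**Figure D4:**
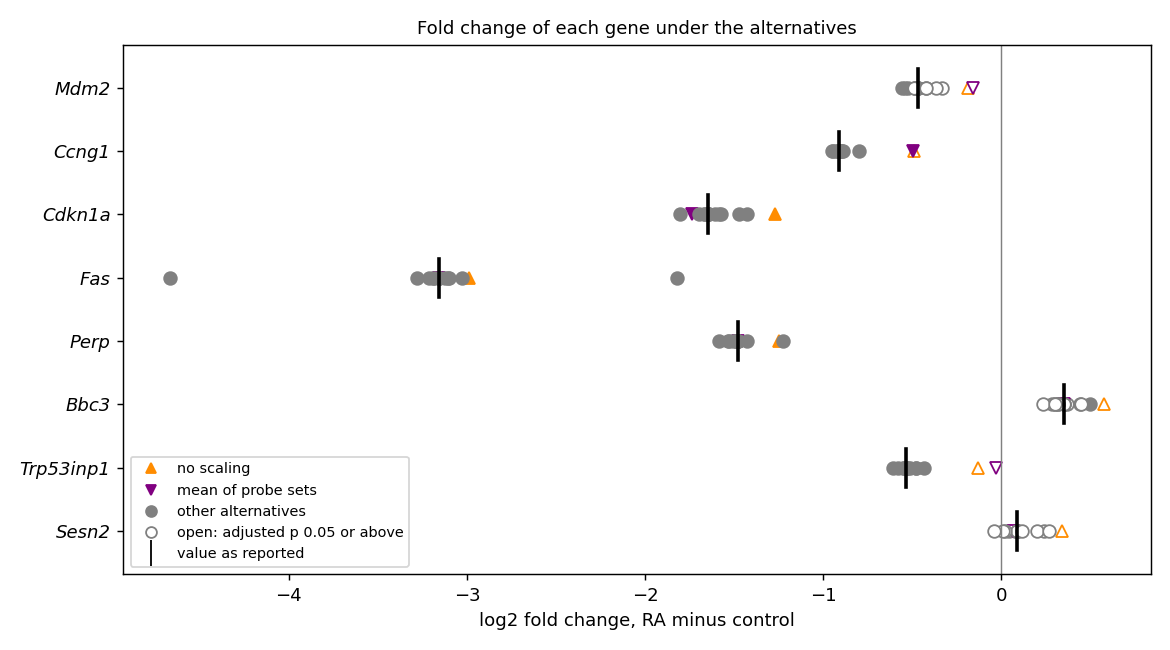
Log2 fold change, RA minus control, of each gene under the 15 alternatives (open symbols: adjusted p of 0.05 or above), with the reported value as a black bar. Fas, Cdkn1a and Perp are called under each alternative. Ccng1, Mdm2 and Trp53inp1 lose their call without scaling, and Trp53inp1 and Mdm2 lie near 0 with the mean of their probe sets.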

How the data were processed

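Arrays were grouped by the sample titles. Each of 45101 probe sets has a deposited linear intensity, made with GCOS at default settings per the labels, whose version is not given in the sources used here. Because the trimmed mean intensity (2% taken off each end) was 108 to 191 between arrays, log2(intensity + 16) was quantile normalized between arrays. The pseudocount of 16 understates the fold changes of dim genes. The 64 control probe sets were left out, and so were 932 probe sets with several gene symbols, which left 34958 with 1. Through the gene identifier 34754 of these matched GRCm38.p6 RefSeq.

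Probe sets with a mean above the 40th percentile (log2 level 5.74) were kept, and a gene was read from its brightest kept probe set, chosen once on all 6 arrays. The resulting 13608 genes were fitted with limma 3.58.1 in R 4.3.3 (lmFit, eBayes with a trend, two-sided, no covariates), with Benjamini-Hochberg adjustment over all genes and a threshold of 0.05. A second fit used all 27022 kept probe sets. The procedure was tested on simulated data.

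The members, lists and settings were chosen with earlier results of these data known. Beside the members, the rule named up to 4 genes with the smallest p from each pathway list (at most 3 of 1 direction where both held a call), up to 2 from each marker list, and the 3 genes nearest to the profile of Cdkn1a; the same step for Trp53 was not run. Alternatives covered scaling, pseudocount, filter, probe set choice, trend, a replicate block and arrays left out. Same-numbered arrays did not deviate together (correlations of -0.085, -0.014 and -0.027 for numbers 1, 2 and 3), so the numbers were not taken as pairs. The number of arrays limits the precision.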

Additional observations from a re-analysis of the deposited data

How the results depend on the processing

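Of 15 alternatives, scaling mattered most. Without it 4.8% of all genes were lower and 12.8% higher, against 15.6% and 14.3%, and 72.8% of calls were higher, against 47.8%. The median of all genes was then 0.26, against 0.012. Relative to that median, Ccng1, Mdm2 and Trp53inp1 stood at -0.75, -0.45 and -0.39. Without scaling 3 members and 4 member probe sets were lower; 1 wider target was higher and 3 lower; 5 regulators were higher and 1 lower; 0 apoptosis genes were higher and 1 lower; and 1 of the CDK inhibitors and cyclins was lower. With the mean of probe sets 1 apoptosis gene was higher, and Cflar changed sign (0.085). Without a trend 1 wider target and 1 apoptosis gene were higher. Without RA array 1 and control array 3 together 1 apoptosis gene was higher and 1 lower.

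Leaving out 1 array gave 0 to 1 members higher and 5 to 6 lower, 0 to 1 member probe sets higher and 7 to 8 lower, 1 to 3 wider targets higher and 10 to 13 lower, 6 to 9 regulators higher and 2 to 3 lower, and 0 to 2 apoptosis genes higher and 2 to 4 lower. It gave 6 to 7 CDK inhibitors and cyclins lower and 9 to 10 DREAM genes higher. Of all 13608 genes it called 1487 to 1815 higher and 1733 to 1928 lower. With the replicate block 6 members were lower and 0 higher, and Mdm2 stayed called (limma adjusted p = 0.0265); the block moved no count by over 1.5 times. The other counts, 185 of 208, were within 1.5 times of those reported. Detection calls were not used, so how far Fas and Bcl2 with RA lie above background is not known.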
